A study of Homo sapiens with 8 samples.

Results

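The 14-3-3 proteins are a family of small adaptors that bind phosphorylated serine and threonine residues of many signalling, cell cycle and apoptosis proteins. They act as dimers, and by holding a client protein they can keep it in the cytoplasm, block an active site or shield it from dephosphorylation. In neural and neuroblastoma cells they are abundant and bind, among others, the pro-apoptotic protein BAD, the RAF kinases, the FOXO factors and tyrosine hydroxylase. Each isoform is the product of its own gene. The 7 genes YWHAH (eta), YWHAB (beta), YWHAE (epsilon), YWHAG (gamma), YWHAQ (theta), YWHAZ (zeta) and SFN (sigma) were taken by their symbols from a count table of 56303 genes, and the question was how YWHAH compared with its paralogs in m6A immunoprecipitation, in RNA level and in the response of both to METTL14 knockdown.

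The libraries came from SK-N-BE(2), an established human neuroblastoma cell line with amplified MYCN. The arms were a control shRNA, sh-NC, and shMETTL14, which targets METTL14, the RNA-binding partner of METTL3 in the complex that writes N6-methyladenosine (m6A) on mRNA. Both arms were made with the lentiviral knockdown vector pLKO.1. The labels do not say whether the 2 shMETTL14 samples carried the same shRNA or different shRNAs. Polyadenylated RNA was fragmented, a portion was kept as input, and the rest was pulled down with an anti-m6A antibody (IP). With 2 replicates per arm there were 8 libraries, and since nothing states that replicates were separate cultures, the p-values measure the spread between these samples, which may be technical. Both mates of a read pair appear to have been counted, because 82.8% of the table's entries from 1 to 10 were even.

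Total counts ran from 32027379 to 47205265 per library. METTL14 itself (chr4:118685368-118715433, GRCh38) stood at 49.5 and 48.7 CPM (library-size scaling with TMM) in the sh-NC inputs and at 13.7 and 14.6 CPM in the shMETTL14 inputs. Its RNA fell by 1.79 on the log2 scale (SE 0.0663, adjusted p = 1.28e-15, quasi-likelihood test in edgeR, Benjamini-Hochberg adjustment). In the IP libraries METTL14 was at 78 and 78 CPM in sh-NC and at 24.8 and 23.2 CPM in shMETTL14. Its level thus matched the arm label of each library, and it does not check the label of IP or input. All 10 markers of adrenergic neuroblastoma reached 1 CPM in every input, with a summed level of 6213 to 6449 CPM in sh-NC and 6579 to 6639 CPM in shMETTL14. Most of this sum was MYCN, at 4220 to 4448 CPM, while CHGA (303 and 307 CPM against 450 and 456 CPM), TH (32.6 and 35.6 CPM against 68.9 and 70.2 CPM) and DBH (2.38 and 2.33 CPM against 4.45 and 3.92 CPM) had higher values in both shMETTL14 inputs. Of 8 keratinocyte and other epithelial markers 3 reached 1 CPM in every input, with sums of 19.2 to 20.7 CPM and 15.7 to 16.5 CPM, and KRT5, TP63 and CDH1 were at or near 0. Schwann cell and fibroblast markers, 4 of 6 of which reached 1 CPM in every input, summed to 96 to 102 CPM in sh-NC and 65.2 to 68.3 CPM in shMETTL14. Of 4 immune markers 1 reached 1 CPM in every input, with sums of 16.6 to 20.2 CPM and 12.9 to 14.6 CPM, and MS4A1 was at 0. The part of these marker levels in the 14-3-3 results was not tested. In such bulk RNA, fewer cells that express a gene and less RNA per cell cannot be told apart.

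The members differ in how their exonic sequence is arranged, which matters for an assay that pulls down fragments. By the exons in the count table, YWHAH lies on the forward strand at chr22:31944461-31957603 with 2453 exonic bases in 6 blocks, the longest of 1465 bases. YWHAG, on the reverse strand at chr7:76326794-76359031, holds 91.7% of its 3750 exonic bases in its longest block of 3440 bases. YWHAE (reverse strand, chr17:1344272-1400378) has 3847 exonic bases in 8 blocks, and YWHAQ (reverse strand, chr2:9583972-9631014) has 2713 in 8 blocks. The exonic sequence of YWHAB (forward strand, chr20:44885676-44908532) amounts to 7933 bases in 4 blocks and that of YWHAZ to 8555 bases in 14 blocks. SFN (forward strand, chr1:26863138-26864457) is a single exon of 1320 bases.

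Promoter windows from RefSeq (GRCh38.p14, 250 bases before to 50 bases after the annotated start) were matched for 6 of the 7 genes, YWHAZ being without an entry. The YWHAH window held 44 CG dinucleotides, more than 95.8% of the 35116 windows of all genes, whose median was 14. YWHAE had 36, YWHAQ 34, YWHAG 32 and YWHAB 29, while the window of SFN held 7. The letters GGACT, a common form of the m6A consensus, were searched on both strands, where 44.2% of all windows hold them. On the sense strand, with 25.3% of all windows, YWHAQ alone of the 6 had matches. Both are shown because 1 of them falls in the first 50 transcribed bases, as in 4.9% of all windows. They read 5′ to 3′ on the gene's strand with GGACT in capitals, upstream of the start at chr2:9631069-9631093 (minus strand) and downstream of it at chr2:9630957-9630981 (minus strand).
YWHAQ upstream: gctgggggcgGGACTctcgggagaa
YWHAQ downstream: caaagtggtgGGACTcgcgtcgcgg
The YWHAH window held no match, which says only that these letters are not in these 300 bases. Most of each transcript lies outside the windows and was not searched.

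Of the 7 genes, 6 were well measured in every library and SFN was not. YWHAH was counted 6278 and 6038 times in the sh-NC inputs and 7784 and 7774 times in the shMETTL14 inputs, and across the other 5 genes input counts ran from 9457 for YWHAB to 23974 for YWHAG. SFN, an epithelial, p53-inducible isoform, was counted 0 and 15 times in the inputs of sh-NC and 13 and 2 times in those of shMETTL14. In the first of these libraries a count of 0 allows up to 3 counts, or 0.0839 CPM, by counting error alone, if each count is independent. With both mates of a pair counted, this bound is higher. No fold is given for SFN, whose IP counts were 8, 8, 8 and 4.

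Processed pseudogenes share sequence with some members. YWHAZ (reverse strand, chr8:100916525-100953388) had 7 annotated pseudogene rows, all with counts, whose sum was between 4.32% and 7.92% of the YWHAZ count in a library, so its level is the least certain. For YWHAB, YWHAE and YWHAQ the same share did not exceed 0.628%, and YWHAH, YWHAG and SFN had no such row. YWHAH shares 22 exonic bases with C22orf24 on the opposite strand, whose count was at most 0.255% of that of YWHAH.

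Per kilobase of exonic length, YWHAG and YWHAE were the highest members, YWHAQ followed, YWHAH was in the middle, and YWHAZ and YWHAB were low. The exonic length merges all exons annotated for a gene and is not that of a single transcript, so this order depends on it. In CPM, not divided by length, YWHAH was the lowest of the well measured genes in every input, at 167 to 186 CPM. YWHAB was at 262 to 292 CPM and YWHAZ at 291 to 322 CPM. YWHAG averaged 144 CPM per kilobase over the 4 inputs, with a range of 137 to 153, and YWHAE averaged 127, with a range of 121 to 136. In sh-NC replicate 1 these neighbours were at 137 and 136 CPM per kilobase, whereas their ranges lay further apart in shMETTL14, at 148 and 153 against 121 and 121. YWHAQ averaged 105 CPM per kilobase (96.3 to 114). YWHAH averaged 72.6 CPM per kilobase, with values of 71.5 and 68.2 in sh-NC, against 74.8 and 75.8 in shMETTL14, and its range met that of no other member. YWHAZ at 35.9 (34.1 to 37.6) and YWHAB at 35.1 CPM per kilobase (33 to 36.9) overlapped and have no order, and they changed places without either sh-NC replicate. SFN was at 0, 0.315, 0.232 and 0.0362 CPM per kilobase.

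**Figure D1:**
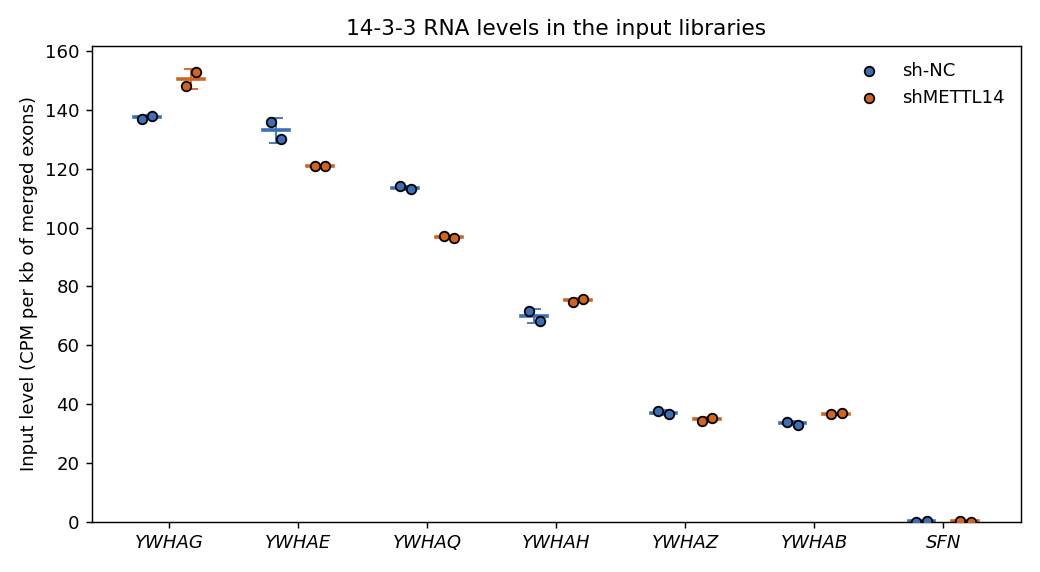
Input RNA level of the 7 14-3-3 genes, in CPM per kilobase of exonic length on a linear axis, with 1 point per input library and a bar at the mean of each arm (n = 2). The points run from near 0 for SFN to 153 for YWHAG, and those of YWHAH lie between 68.2 and 75.8.

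The summed level of the 7 genes hardly differed between the arms, while its make-up did. The sum was 530 and 518 CPM per kilobase in sh-NC and 512 and 519 in shMETTL14, and these values overlap. YWHAH made up 13.5% and 13.2% of the sum in sh-NC, against 14.6% and 14.6% in shMETTL14. The share of YWHAG was 25.9% and 26.6% in sh-NC against 28.9% and 29.5%, and that of YWHAB was 6.39% and 6.37% against 7.14% and 7.11%. In the other direction, YWHAQ held 21.5% and 21.8% in sh-NC, compared with 19% and 18.6% in shMETTL14, and YWHAE 25.6% and 25% against 23.7% and 23.4%. YWHAZ held 7.1% and 7.06% against 6.65% and 6.82%. For each of these 6 genes the 2 arms did not overlap in share. The shares of a sum depend on each other and on the merged exonic lengths, and no test was run on them.

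In the comparison of input RNA between shMETTL14 and sh-NC, 3 members were higher, 2 were lower and 2 did not pass the threshold of 0.05 on the adjusted p. Among the 22245 genes tested, 11.7% were called higher and 12.3% lower. The median of the 7 members was -0.09, and 0.01 for the 6 without SFN, on the log2 scale, against 0.00 for all genes tested. The members' changes were small, since called genes had a median size of 0.32 on the log2 scale.

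Of the members that rose, YWHAH stood at 175 and 167 CPM in the sh-NC inputs and at 183 and 186 CPM in shMETTL14, so the arms did not overlap. Its change was 0.11 on the log2 scale, or 1.08-fold (SE 0.0374, adjusted p = 0.0267). The call was lost without sh-NC replicate 2 (adjusted p = 0.195), without either shMETTL14 replicate (adjusted p = 0.151 and 0.273) and without the filter on low counts (adjusted p = 0.104). YWHAG, abundant in brain and muscle, was at 514 and 516 CPM in sh-NC and 555 and 573 CPM in shMETTL14, a change of 0.14 (SE 0.0312, adjusted p = 0.00179). YWHAB, a partner of RAF kinases, moved from 269 and 262 CPM to 290 and 292 CPM, also a log2 change of 0.14 (SE 0.0337, adjusted p = 0.00306). The call of YWHAG was lost without shMETTL14 replicate 2 (adjusted p = 0.133), and that of YWHAB without either shMETTL14 replicate (adjusted p = 0.0587 and 0.124).

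The largest change in the family was a fall of YWHAQ. It went from 310 and 306 CPM in sh-NC to 263 and 261 CPM in shMETTL14, and its RNA fell by 0.22 on the log2 scale (SE 0.0333, adjusted p = 1.55e-05), a call that held under every alternative tried. YWHAE, a gene of the deletion in Miller-Dieker syndrome, stood at 522 and 498 CPM in sh-NC and at 466 and 467 CPM in shMETTL14. Its change was -0.12 on the log2 scale (SE 0.0324, adjusted p = 0.00634), a call that was lost without sh-NC replicate 1 (adjusted p = 0.0662), without either shMETTL14 replicate (adjusted p = 0.108 and 0.139) and without the filter (adjusted p = 0.109). YWHAZ was at 322 and 313 CPM against 291 and 303 CPM, with a log2 difference of -0.09 and a 95% interval of -0.16 to -0.02 that includes no 0, but it missed the threshold after adjustment (adjusted p = 0.0634, edgeR). For YWHAE and YWHAZ the arms did not overlap.

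The pull-down separated YWHAH from its paralogs. The ratio of IP CPM to input CPM is relative to the typical gene of the library, since TMM scaling placed the median log2 ratio of all genes at -0.01 in both arms. A ratio of 1 is therefore not the absence of m6A. In sh-NC, 3 members were above this level and 1 below it, against 29.1% and 29.8% of the 22953 genes tested. In shMETTL14, 3 were above and 0 below, against 28.9% and 29.1% of genes. The count of 0 in shMETTL14 was also obtained with DESeq2 and at an unadjusted p under 0.05, but it was 3 with library size as the only scaling, and 1 without either sh-NC replicate, with at least 10 counts in every library, with counts halved and with pseudogenes summed. The median log2 ratio of the 6 members without SFN was 0.21 in sh-NC and 0.15 in shMETTL14, and that of all 7 was 0.08 and 0.07.

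YWHAH had 14125 and 9126 counts in the sh-NC IP libraries and 9552 and 9891 in those of shMETTL14. Its IP over input was 1.77 and 1.79 in sh-NC, against 1.69 and 1.57 in shMETTL14. The log2 ratio was 0.83 in sh-NC (SE 0.0399, adjusted p = 4.93e-24, edgeR), at percentile 90.2 of all genes tested, and 0.70 in shMETTL14 (SE 0.0397, adjusted p = 2.99e-21), at percentile 86.2. YWHAH therefore ranked the highest of the 6 in each of the 4 replicates, and this rank does not depend on scaling, which moves all genes of a library alike.

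YWHAE and YWHAG came next and were close to each other. YWHAE had ratios of 1.23 and 1.33 in sh-NC, against 1.29 and 1.25 in shMETTL14, and YWHAG had 1.25 and 1.28 in sh-NC, compared with 1.23 and 1.18 in shMETTL14. Their log2 ratios in sh-NC were 0.35 (SE 0.0361, adjusted p = 4.06e-12) and 0.34 (SE 0.0354, adjusted p = 8.21e-12), and they exchanged places between replicates. In shMETTL14 they were 0.34 (SE 0.0362, adjusted p = 9.71e-12) and 0.27 (SE 0.0353, adjusted p = 2.73e-09).

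YWHAB, YWHAQ and YWHAZ lay near the level of the typical gene. YWHAB had ratios of 1.04 and 1.07 in sh-NC, against 1.02 and 1.02 in shMETTL14, and YWHAQ had 0.95 and 1.01 in sh-NC, compared with 1.03 and 1.02 in shMETTL14. Neither passed the test in either arm, with edgeR adjusted p between 0.0693 and 0.571, although YWHAB in sh-NC passed as higher with DESeq2 (adjusted p = 0.0476) and without sh-NC replicate 1 (adjusted p = 0.0288). In sh-NC the log2 ratio was 0.08 for YWHAB and -0.03 for YWHAQ, and with library size as the only scaling, which moved the median of all genes to -0.14, it was -0.05 for YWHAB and -0.16 for YWHAQ, the latter then passing (adjusted p = 5.27e-05). With the same scaling both passed as lower in shMETTL14, YWHAB at -0.09 (adjusted p = 0.0173) and YWHAQ at -0.09 (adjusted p = 0.0273). YWHAZ was the lowest of the 6 in each of the 4 replicates, with 0.886 and 0.925 in sh-NC, against 0.966 and 0.935 in shMETTL14. Its log2 ratio in sh-NC was -0.14 (SE 0.0374, adjusted p = 0.000852), and in shMETTL14 -0.07 (SE 0.0375, adjusted p = 0.0864). When the factors were taken from the least enriched genes, which shifted the median log2 ratio of all genes to 0.92 in sh-NC, the ratio of YWHAZ was 0.79 and all 6 genes were above 0. Relative to that median, YWHAZ was still on the lower side.

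**Figure D2:**
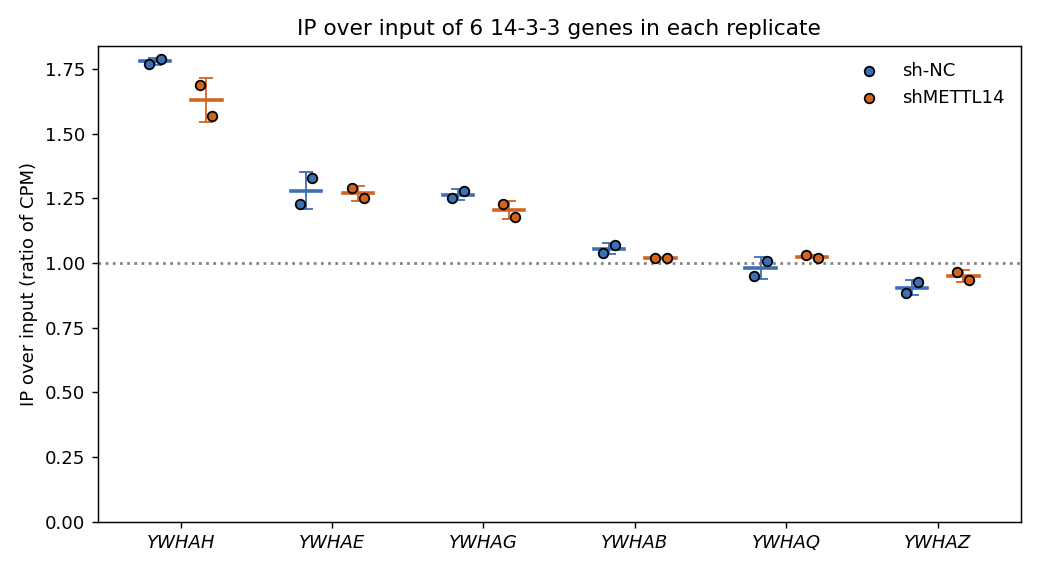
IP over input of the 14-3-3 genes in each replicate, as the ratio of IP CPM to input CPM on a linear axis, with 1 point per replicate and a bar at the mean of each arm (n = 2). YWHAH lies between 1.57 and 1.79, apart from all other members, YWHAE and YWHAG lie between 1.18 and 1.33, and YWHAZ is below 1 in all 4 replicates.

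**Figure D3:**
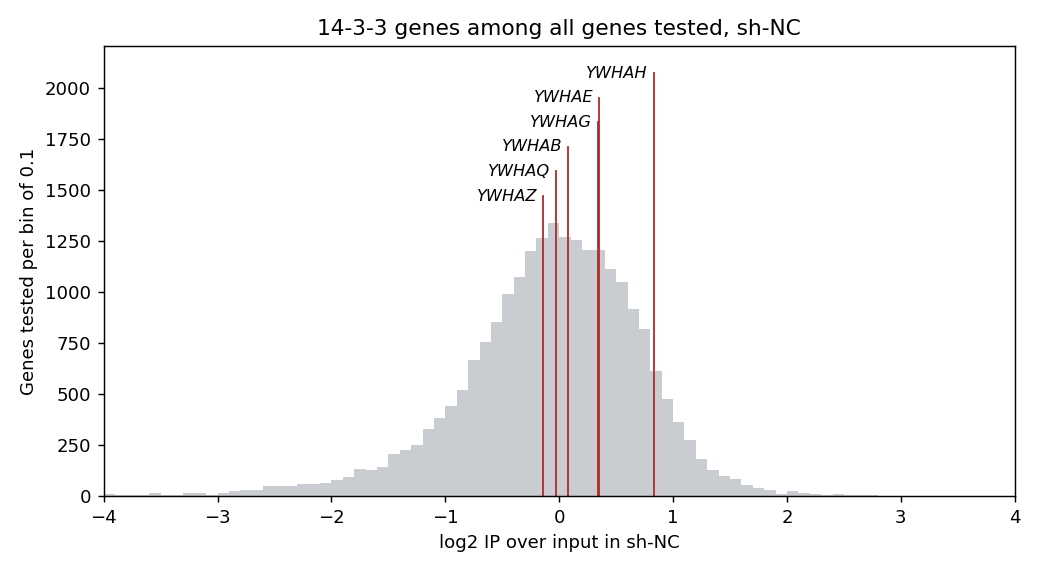
Distribution of the log2 ratio of IP to input in sh-NC over the genes tested, with the 6 well measured 14-3-3 genes as vertical lines. YWHAH, at 0.83, is in the upper tail at percentile 90.2, and the other 5 lie between -0.14 and 0.35, at percentiles 42.5 to 69.7.

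The position of YWHAH was compared with genes of like exon structure. Across 22953 genes, which are not independent, the length of the longest exon block and the log2 IP over input in sh-NC had a Spearman correlation of 0.18. Among the 3822 genes with a longest block of 0.8 to 1.25 times that of YWHAH, the median log2 ratio was -0.02, and YWHAH was at percentile 89.3. By the same comparison YWHAE was at percentile 69.2, YWHAG at 65.8, YWHAQ at 50.5, YWHAB at 49.9 and YWHAZ at 32.1. The order of the 6 genes by this percentile differed from that by the ratio itself only in the close pair of YWHAB and YWHAQ.

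Within each replicate YWHAH exceeded every one of the 5 well measured paralogs in log2 IP over input. The mean excess over the 4 replicates was 0.88 ± 0.119 over YWHAZ, 0.77 ± 0.123 over YWHAQ, 0.72 ± 0.0652 over YWHAB, 0.46 ± 0.0436 over YWHAG and 0.42 ± 0.0833 over YWHAE (SD, n = 4). Each pair gave an exact two-sided sign-flip p of 0.125, the smallest that 4 replicates allow. The differences of the edgeR estimates in sh-NC were 0.98 over YWHAZ, with a 95% interval of 0.87 to 1.08, and 0.48 over YWHAE, with an interval of 0.38 to 0.59. These intervals treat the estimates of the 2 genes as independent. All 5 pairs share YWHAH and the libraries, so they are not separate pieces of evidence.

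On METTL14 knockdown, no member passed the test for a change of IP over input (edgeR, 0 higher and 0 lower after adjustment, and 0 and 0 with DESeq2). Of all genes tested, 0% were called higher and 0.00436% lower, which was 1 gene. At an unadjusted p under 0.05, 0 members were higher and 1 was lower, against 3.03% and 3.31% of all genes. The 1 member was YWHAH, whose log2 change was -0.13 with a 95% interval of -0.24 to -0.02 and an adjusted p of 0.719. Its 2 arms did not overlap. The estimate was -0.25 (adjusted p = 0.0667, edgeR) when scaled on the least enriched genes, where the median of all genes was -0.12. These genes were picked by a low IP over input in sh-NC in the same libraries. This scaling is therefore not independent of the comparison. Without shMETTL14 replicate 1 the estimate was -0.19, and without shMETTL14 replicate 2 it was -0.08.

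For the paralogs the intervals of the log2 change of IP over input all included 0. They ran from -0.11 to 0.09 for YWHAE, from -0.15 to 0.05 for YWHAB, from -0.16 to 0.03 for YWHAG, from -0.04 to 0.17 for YWHAQ and from -0.03 to 0.17 for YWHAZ. The estimates were -0.01 for YWHAE, which turned to 0.000407 with library size only, -0.05 for YWHAB and -0.06 for YWHAG. The estimates of 0.07 for YWHAQ and 0.07 for YWHAZ turned to -0.06 and -0.05 when scaled on the least enriched genes, which moved the median of all genes by -0.12. The median of the 7 members was -0.01, against 0.00 for all genes and a median size of 0.13.

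**Figure D4:**
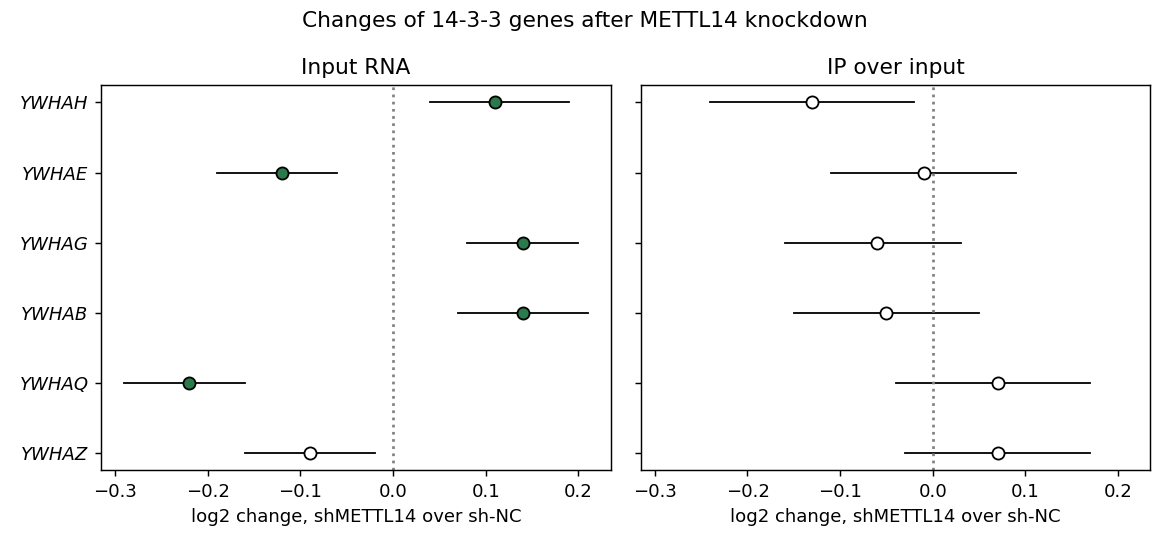
Log2 changes of the 14-3-3 genes between shMETTL14 and sh-NC, for input RNA and for IP over input, with 95% intervals from edgeR. Input changes run from -0.22 for YWHAQ to 0.14 for YWHAB and YWHAG among the well measured genes, and for IP over input the interval of YWHAH, -0.24 to -0.02, is the only one without 0.

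The change of IP over input and the input change share the input libraries, so a higher input by itself lowers the ratio. The IP libraries alone, normalized among themselves, are therefore given beside them. YWHAH was at 310 and 300 CPM in the sh-NC IP libraries and at 310 and 291 CPM in those of shMETTL14, which overlap. Its log2 difference in IP was -0.02 (SE 0.0409, adjusted p = 0.76), whereas its input was higher in shMETTL14. YWHAQ fell in IP from 295 and 308 CPM to 270 and 267 CPM (-0.17, SE 0.0403, adjusted p = 0.0016) and YWHAE from 641 and 661 CPM to 599 and 583 CPM (-0.14, SE 0.0395, adjusted p = 0.00721), as both did in input. These were 2 of the 6 members tested, against 12.6% of 21196 genes that were lower in IP and 10.4% that were higher. YWHAB (0.08, adjusted p = 0.15), YWHAG (0.07, adjusted p = 0.246) and YWHAZ (-0.03, adjusted p = 0.7) did not pass.

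Setting YWHAH against each paralog within a library removes the scaling between libraries. In input, the log2 ratio of the YWHAH count to the YWHAQ count was -0.82 and -0.87 in sh-NC, compared with -0.52 and -0.49 in shMETTL14. This was a gain of 0.34 (SE 0.0501, 95% interval 0.24 to 0.44). Against YWHAE the ratio went from -1.57 and -1.58 to -1.34 and -1.33, a gain of 0.24 (SE 0.0495, 95% interval 0.14 to 0.33). Against YWHAZ it went from -0.88 and -0.90 to -0.67 and -0.70, a gain of 0.20 (SE 0.0507, 95% interval 0.10 to 0.30). Against YWHAB and YWHAG the differences were -0.03 and -0.02, each with an interval of -0.12 to 0.07. The values of the 2 arms overlapped for YWHAG and were next to each other for YWHAB.

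In IP minus input, YWHAH lost against each of the 5 paralogs, and the arms did not overlap in any pair. The 5 changes share the YWHAH ratios and the libraries, so they are not separate pieces of evidence. The log2 excess over YWHAZ was 1.00 and 0.95 in sh-NC, compared with 0.81 and 0.75 in shMETTL14, a change of -0.20 (SE 0.0771, 95% interval -0.35 to -0.05). Over YWHAQ it was 0.90 and 0.83 against 0.72 and 0.62, a change of -0.20 (SE 0.0772, 95% interval -0.35 to -0.04). The changes against YWHAE (-0.12), YWHAB (-0.08) and YWHAG (-0.07) had intervals that included 0. They moved with the replicate left out, to -0.135 and -0.0204 for YWHAB without shMETTL14 replicate 1 and 2, and to -0.0746 for YWHAE without sh-NC replicate 1 and -0.0419 for YWHAG without shMETTL14 replicate 2. With 2 replicates against 2 the exact permutation test, two-sided, has a smallest p of 0.333, which was its value for the 5 pairs here and for 4 of the 5 in input, the pair with YWHAG having 1. None of these 10 differences can pass a test of that kind, and the intervals rest on the spread that edgeR estimated across genes. The intervals are not adjusted for the number of pairs, and the differences in input share YWHAH too.

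**Figure D5:**
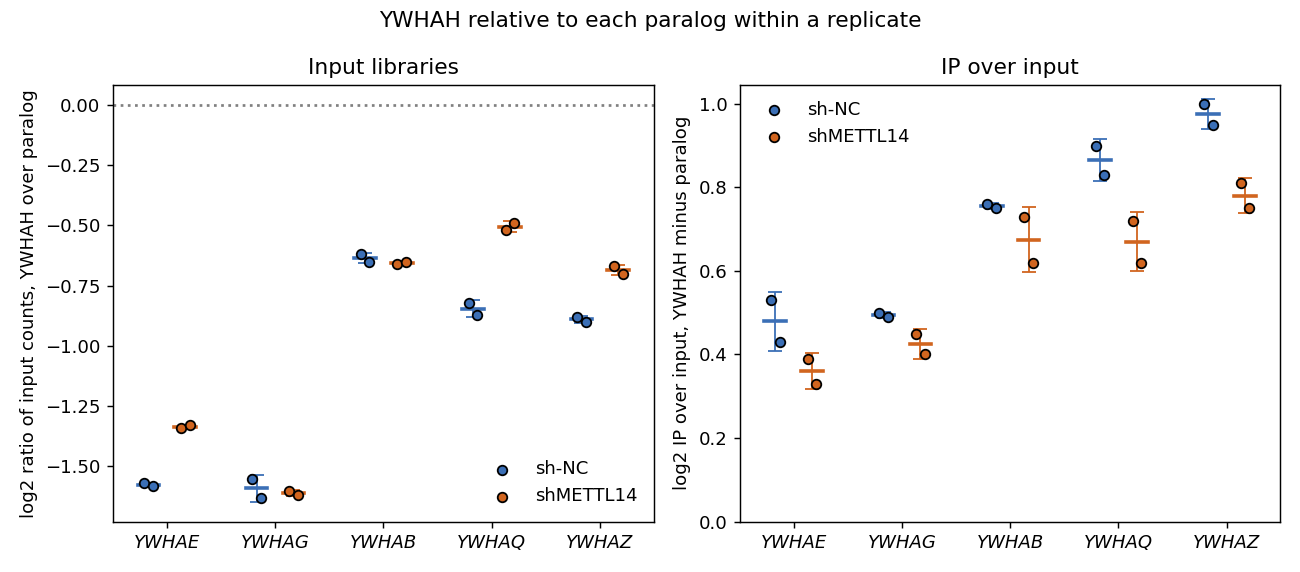
YWHAH relative to 5 paralogs within a replicate, as the log2 ratio of counts in input and as the log2 IP over input of YWHAH minus that of the paralog, with 1 point per replicate. In input the shMETTL14 points lie above the sh-NC points for YWHAE, YWHAQ and YWHAZ, and in IP minus input they lie below them in all 5 pairs, between 0.33 and 0.81 against 0.43 and 1.00.

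Among 16441 genes with a mean of at least 50 counts, the genes most like YWHAH over the 8 libraries were not its paralogs. Likeness was the root mean square difference of log2 CPM, each gene centred on its own mean. Among the 5 nearest were METAP2, a methionine aminopeptidase, at 0.036, LSG1, a GTPase of ribosome biogenesis, at 0.0379, ZEB1, a transcription factor of epithelial-mesenchymal transition, at 0.0385, and PCF11, a cleavage and polyadenylation factor, at 0.039. In sh-NC the log2 IP over input of these 4 genes was 0.77 to 0.85, and in shMETTL14 it was 0.65 to 0.72. Likeness was taken over IP and input libraries together, so ratios near that of YWHAH follow from how these genes were picked. The ranks of the paralogs draw on the same ratios and are not separate evidence. Of the paralogs, YWHAE came at rank 3646 (0.232), YWHAG at 3731 (0.236), YWHAB at 6841 (0.361), YWHAQ at 7911 (0.406) and YWHAZ at 8833 (0.445).

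A list of 29 client proteins of the 14-3-3 family was read beside the members. In input, 5 clients were higher and 7 lower, against 11.7% and 12.3% of all genes tested, with a median log2 change of -0.05 against 0.00 for all genes. The 5 became 3 with DESeq2, 2 without shMETTL14 replicate 1 and 1 without shMETTL14 replicate 2, and without the latter the 7 became 4. TH, which encodes tyrosine hydroxylase, the rate-limiting enzyme of catecholamine synthesis, rose from 32.6 and 35.6 CPM to 68.9 and 70.2 CPM (1.03, SE 0.0546, adjusted p = 7.94e-13). MAP3K5, the stress kinase ASK1, rose from 13.9 and 13.8 CPM to 16.8 and 17.6 CPM (0.32, adjusted p = 0.00676). TBC1D4, an AKT substrate of glucose transport, fell from 78.1 and 78.3 CPM to 49.2 and 48.2 CPM (-0.68, SE 0.0475, adjusted p = 1.39e-10). WWTR1, the Hippo effector TAZ, fell from 24.7 and 21.6 CPM to 16.2 and 16.2 CPM (-0.51, adjusted p = 3.75e-05).

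Other clients with lower input RNA were BRAF, CDC25A, CDC25B, FOXO3 and MDM4, with log2 changes of -0.21 to -0.49, and BAD, a cell death protein that 14-3-3 holds when phosphorylated, was higher by 0.24 (adjusted p = 0.02). In IP over input in sh-NC, 6 of the 29 clients were above the typical gene and 10 below it, against 29.1% and 29.8% of all genes tested. TH was the lowest, at -1.65 on the log2 scale, and CDKN1B, the cell cycle inhibitor p27, the highest that passed, at 0.61. No client passed the test for a change of IP over input (edgeR and DESeq2), where edgeR called 0% of all genes higher and 0.00436% lower. At an unadjusted p under 0.05 (edgeR), 2 clients were higher and 1 lower, against 3.03% and 3.31% of all genes tested.

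A list of 21 genes of the PI3K/AKT core, the kinase pathway that phosphorylates many 14-3-3 clients, was read in the same way. In input, 9 genes were higher and 3 lower, against 11.7% and 12.3% of all genes tested, with a median log2 change of 0.07. With DESeq2 these counts were 6 and 3. The 9 became 5 without shMETTL14 replicate 1 and 3 without shMETTL14 replicate 2. PIK3R3, a regulatory subunit of PI3K, rose from 57.3 and 54.5 CPM to 106 and 109 CPM (0.95, SE 0.0457, adjusted p = 1.58e-13). DEPTOR, an mTOR inhibitor, fell from 127 and 127 CPM to 94.3 and 91.3 CPM (-0.44, SE 0.0408, adjusted p = 1.25e-08). INPP4B, a phosphoinositide phosphatase, also passed the test but rested on few reads, with 4 and 0 counts in sh-NC and 16 and 29 in shMETTL14. AKT1 was higher by 0.21 (adjusted p = 0.000234) and PIK3R1 lower by 0.22, at a log2 change of -0.22 (adjusted p = 0.00187). In IP over input in sh-NC, 6 of these 21 genes were above the typical gene and 7 below it, against 29.1% and 29.8% of all genes tested. For the change of IP over input none passed with edgeR or DESeq2, nor at an unadjusted p under 0.05 with edgeR. At that unadjusted threshold 3.03% of all genes tested were higher and 3.31% lower. The 2 lists share 2 genes.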

How the data were processed

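MeRIP-seq libraries of SK-N-BE(2) cells were grouped by the sample labels (sh-NC or shMETTL14, IP or input, replicate 1 or 2). The authors deposited raw counts per gene, with exon coordinates and gene length; Trimmomatic 0.36 and GRCh38 are named in the submitters' processing notes, and the aligner, counter and strand setting are not given in the sources used here. The rule for named genes took the 7 members, METTL14, the 5 genes most like YWHAH, and in each list up to 2 largest rises and falls past the threshold; BRAF, CDC25A, CDC25B, FOXO3, MDM4, BAD, CDKN1B, AKT1 and PIK3R1 were chosen after their values were seen. Of the genes this rule names, 2 are not reported here. The members, lists and tests were chosen with earlier results of these data known. Counts were tested in R 4.3.3 with edgeR 4.0.16 (filterByExpr, TMM, glmQLFit, glmQLFTest, Benjamini-Hochberg over all genes tested, threshold 0.05), the input change in 4 libraries and the rest in a model of 4 group means over 8 libraries. SE is the absolute log2 change over the root of F, and intervals are 95%. A prior count of 2 was used for log2 CPM. The code was tested on simulated data. Alternatives were DESeq2 1.42.0, other scalings and filters, a replicate block and leaving out each replicate. Figures were drawn with matplotlib 3.10.9. IP and input of a replicate came from the same RNA, as the protocol states, although around the group means they correlated by only 0.004 and 5.6e-05 across 22953 genes. Counting error is small at these totals, and intervals and floors cover counting error or the spread of these samples only.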

Additional observations from a re-analysis of the deposited data

How the results depend on the processing

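Leaving out each replicate in turn gave 0 to 3 members higher in input (3 with all; 1 and 0 without shMETTL14 replicate 1 and 2) and 1 to 3 lower (2 with all; 1 without sh-NC replicate 1 or either shMETTL14 replicate, and 1 without the filter on low counts), while the log2 directions of the 6 well measured genes held in all settings. For IP over input in sh-NC these counts were 3 to 4 above and 1 to 1 below, and in shMETTL14 3 to 3 above and 0 to 1 below. Library size alone, which shifted the median of all genes by -0.142 and -0.128, gave 2 below in sh-NC and 3 in shMETTL14; factors from the least enriched genes (median 0.921 and 0.804) gave 6 above in each arm and 0 below in sh-NC. In shMETTL14, 1 was below with at least 10 counts in every library, with counts halved and with pseudogenes summed, the last 2 chosen after seeing the data.

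Ratios near the typical gene turned sign. YWHAB became -0.0515 in sh-NC and -0.0945 in shMETTL14 and YWHAQ -0.0872 in shMETTL14 with library size alone. YWHAB was -0.00553 in shMETTL14 with at least 10 counts. With the least enriched genes YWHAQ was 0.905 and YWHAZ 0.794 in sh-NC, and YWHAZ 0.74 in shMETTL14. YWHAQ in sh-NC ranged from -0.0684 to 0.0224 over the left-out replicates. For the change of IP over input, the IP libraries alone gave 2 members lower (unadjusted p, added later, 1), with 0.0806 for YWHAB, 0.0667 for YWHAG, -0.167 for YWHAQ and -0.027 for YWHAZ; the least enriched genes gave -0.0574 for YWHAQ and -0.0536 for YWHAZ; YWHAE was 0.000407 with library size alone and -0.0825 to 0.0452 over the left-out replicates (0.0111 without shMETTL14 replicate 2). YWHAH ranged from -0.186 to -0.077, with no adjusted p under 0.0667 in any setting. YWHAH relative to YWHAG in input ranged from -0.0598 to 0.0141. The values from the IP libraries alone hold no input, so they are changes of the IP level and not of the ratio. Another scaling moves all genes of a library alike, so its turns come with the shift of the median of all genes. The cause of the other turns was not tested.

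The block was the replicate number in the input comparison, and in the others each replicate of an arm, which joins its IP and input. With it the members' counts of calls were the same in all 4 comparisons. All genes gave 2744 higher and 2849 lower in input and 0 and 1 for the change of IP over input. The replicate numbers do not pair the arms, as inputs with the same number had a correlation of deviations of -0.012. Over the left-out replicates, 3 to 8 PI3K/AKT genes were higher in input (9 with all; 5 and 3 without shMETTL14 replicate 1 and 2), 2 to 3 lower, 1 to 5 clients higher (5 with all, 3 with DESeq2) and 4 to 7 lower (7 with all).

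Over all genes, input calls fell from 2607 higher and 2732 lower to 1082 and 1072 without the filter and to 656 and 925 without shMETTL14 replicate 2 (1355 and 1523 without replicate 1). Calls for the change of IP over input were at most 9 higher and 116 lower over the left-out replicates, 1 and 107 with the least enriched genes and 1 and 12 without the filter. A left-out replicate leaves its group with 1 library, assumed to vary like the others. With 2 replicates per arm the spread within an arm rests on 1 difference, pooled across genes by edgeR. Whole-gene counts do not show where on a transcript the antibody bound, IP over input is relative to the other genes of a library, and a shift shared by all genes cannot be seen without a spike-in. Depth limits SFN and INPP4B but not the other 6 members. The check for a sample far from its group needs at least 4 samples and was not possible.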
